A study of Arabidopsis thaliana with 12 samples.

Results

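The genes described here are 86 nuclear genes of Arabidopsis thaliana leaves whose RNA was at least 3-fold higher after 18 h than after 9 h of strong light in both tpt-2 and Col-0. They were chosen from 32833 genes in the deposited table, of which 17470 were nuclear and averaged 1 FPKM or more (FPKM, fragments per kilobase of transcript and per 1e06 fragments). The choice used the group means of log2(FPKM + 1) at the 2 times, and 99 genes passed it in both genotypes. A further 17 clock, phenylpropanoid, anthocyanin and cell wall genes were named to be left out, and 13 of these were among the 99, which leaves 86. The size of the rise between 9 h and 18 h chose the members and is therefore given as a description without a test.

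RNA was taken from leaves of plants of 2 genotypes: tpt-2, a mutant in the gene of the triose phosphate/phosphate translocator (TPT) of the chloroplast envelope, and Col-0, the accession it is compared with. All plants had grown on soil for 21 d with 10 h of light a day, and all were moved to 500 µmol photons m-2 s-1 when the night ended. Leaves were collected 18 h or 9 h after the move, with 3 biological replicates of each genotype at each time. No library from before the move or from plants kept in the growth light was part of the comparison, and the time of day changed together with the time in strong light, so the effects of these cannot be told apart.

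TPT exports the triose phosphates made by photosynthesis to the cytosol in exchange for phosphate, and a leaf without it relies on starch turnover and sugar export for its carbon. Leaves in strong light make antioxidants, photoprotective chlorophyll-binding proteins and flavonoid pigments, and their genes respond to light receptors, chloroplast signals, sugars and the circadian clock. A light period that lasts far beyond the usual day also puts the leaf in light at hours when it would be dark, which in Arabidopsis is the setting in which the florigen genes FT and TSF are switched on.

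The libraries held between 12.3 and 14.3 M fragments assigned to genes (M, 1e06), except for Col-0 replicate 1 at 18 h with 25.7 M, as recovered from the steps between low FPKM values. The TPT gene itself, listed in the annotation under the symbol APE2, had 2.92 ± 0.21 FPKM in tpt-2 and 436 ± 29.8 FPKM in Col-0 at 18 h, against 3.10 ± 0.68 FPKM in tpt-2 and 393 ± 61.0 FPKM in Col-0 at 9 h (SD, n = 3 each). The leaf markers were abundant, with RBCS1A between 17521 and 22618 FPKM, whereas the root hair marker EXPA7 and the floral marker AP1 did not exceed 0.0697 FPKM in any library. The other root markers reached 1.27 FPKM (MYB66, with a median of 0.413) and 0.0958 FPKM (SHV2). The other floral markers reached 0.183 FPKM (AG) and 0.133 FPKM (AP3). Libraries of 1 group correlated with Pearson's r between 0.969 and 0.992 over genes on the log2 scale, and libraries of different groups with r between 0.910 and 0.976.

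Among the members, 2 libraries stood apart from the other replicates of their groups. Replicate 3 of tpt-2 at 18 h was at least 2-fold below both other replicates for 12 of the 86 members (14.0%), against 1.18% of all tested nuclear genes. Replicate 3 of Col-0 at 9 h was at least 2-fold above both other replicates for 12 members (14.0%), against 1.80% of all tested nuclear genes. The lists shared 8 members, which is 66.7% of each, namely ARGAH2, AT1G73325, AT3G28220, AT3G57460, BAM5, JAL23, RD20 and VSP2. In each of the other 10 libraries between 0 and 3 members lay that far above and between 0 and 1 that far below. The 2 lists together held 16 members, and the genotype difference of each is given further on with and without the 2 libraries; its sign turned for 4 of them (RD20, JAL23, ARGAH2 and AT3G28220). What set the 2 libraries apart was not tested. They were picked by the values of these 16 members, so the differences of these members without the 2 libraries are a description. Their adjusted p without the 2 libraries are no valid tests.

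**Figure D1:**
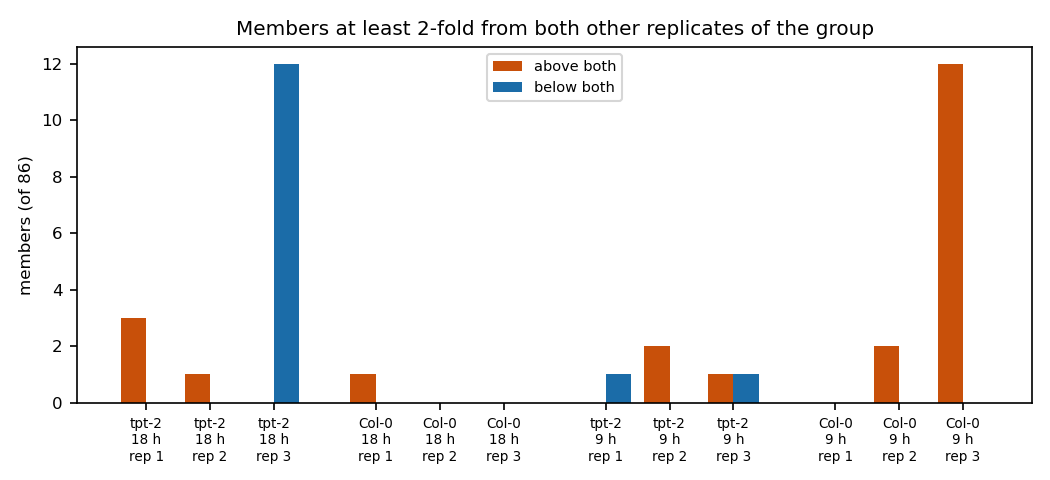
Number of the 86 members (vertical axis) whose FPKM + 1 in a library was at least 2-fold above (orange) or below (blue) both other replicates of the same group, for each of the 12 libraries (horizontal axis). Replicate 3 of tpt-2 at 18 h has 12 members below, replicate 3 of Col-0 at 9 h has 12 members above, and no other bar exceeds 3.

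The members spanned several functions, which were assigned by hand from the RefSeq annotation and general knowledge once their values were known. There were 9 members in photoprotection and redox metabolism, 5 in the flavonoid and anthocyanin pathway, 5 in starch and sugar metabolism, 9 in nitrogen and sulfur metabolism, 5 in lipid and sterol metabolism and 2 in metal transport. A further 8 were florigens and regulators of transcription, 10 were storage, defence and stress proteins, 4 belonged to the cell wall and cytoskeleton, and 29 had another or no known role. Of the 86 loci 84 code for proteins (97.7%), close to the 97.4% of all tested nuclear genes. Their median transcript length was 1488 bases, against 1663 bases over all tested nuclear genes, and their median number of merged exons was 3 against 5. Their median level was 16.9 FPKM, against 10.4 FPKM over all tested nuclear genes.

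Sequence around the gene starts was examined for 14 motifs that are known from light, clock, stress and phenylpropanoid promoters, each on both strands, in a window from 250 bases before to 50 bases after the annotated start. The G-box, CACGTG, which in plants is bound by bZIP factors such as HY5 and by bHLH factors such as the PIFs, lay in the windows of 15 of the 86 members (17.4%). It lay in 8.92% of the windows of tested nuclear genes and in 6.46% of all windows of the annotation. The AC element ACCTACC, of the kind bound by MYB factors of the phenylpropanoid pathway, lay in the windows of 5 members (5.81%), against 1.43% of tested windows. These members were AT1G68440, NIA1, LHCB4.3, AT5G19875 and AT5G62210, none of them in the flavonoid and anthocyanin pathway. The evening element AAAATATCT, bound by the morning clock factors, lay in 1.16% of member windows against 3.09% of tested windows, and the telo box AAACCCT of ribosomal protein genes in 2.33% against 9.77%. Of the others, the HUD element CACATG lay in 18.6% of member windows against 12.5% of tested windows, the W-box TTGACC in 17.4% against 14.0%, the TATA box TATAAA in 55.8% against 50.3%, and the protein box ATGGGCC in 4.65% against 10.8%. The shares differed by less than 2 percentage points for the CCA1 binding site AAAAATCT, the cold-related CRT/DRE core CCGAC, the heat shock element GAANNTTC and the light-related I-box GATAAG. The same held for the AC element ACCTAAC and for its variant ACCAACC. No site can be both a G-box and a HUD element, whose letters differ, and a window with several sites of a motif was counted once.

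These stretches of RefSeq TAIR10.1 sequence show the G-box (capitals) with 20 bases on each side, upstream of the start of 6 members that are described further on, written 5′ to 3′ on the strand of the gene. They are shown because these pigment, photoprotection, drought and starch genes among the members hold this motif close to their starts.
MYB90 (chr1:24763875-24763920, plus strand, 46 bases before the start): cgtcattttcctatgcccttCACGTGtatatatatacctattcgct
CHIL (chr5:1563199-1563244, plus strand, 67 bases before the start): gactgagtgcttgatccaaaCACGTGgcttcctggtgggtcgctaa
ELIP1 (chr3:8085710-8085755, minus strand, 66 bases before the start): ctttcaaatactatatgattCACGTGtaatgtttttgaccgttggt
GSTF6 (chr1:662583-662628, minus strand, 133 bases before the start): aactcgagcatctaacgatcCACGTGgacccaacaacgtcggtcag
RD20 (chr2:14146598-14146643, minus strand, 68 bases before the start): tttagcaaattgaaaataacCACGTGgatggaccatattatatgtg
BMY3 (chr5:6225856-6225901, plus strand, 80 bases before the start): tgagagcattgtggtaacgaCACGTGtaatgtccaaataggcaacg

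Of the 15 members with a G-box, 8 were called lower in tpt-2 over both times and 7 were not called, against 37.2% of all members and 6.24% of all genes tested called lower, in the comparison of genotypes given further on. A match to the letters describes the window only and does not show that a factor binds there.

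**Figure D2:**
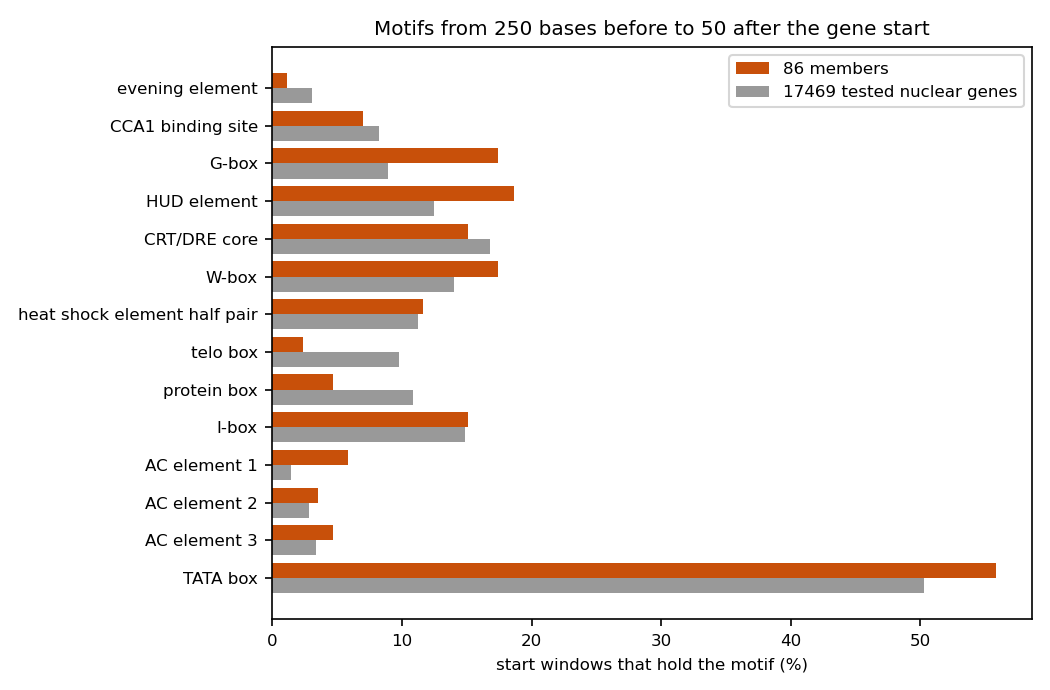
Share of windows around the gene start (horizontal axis, percent) that hold each of 14 motifs (vertical axis) for the 86 members (orange) and for all tested nuclear genes with a window (grey). The AC elements are numbered in the order ACCTACC, then ACCTAAC, then ACCAACC. The G-box bar of the members, at 17.4%, lies above the grey bar at 8.92%, and the telo box bar of the members, at 2.33%, lies below the grey bar at 9.77%.

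The first question was how the members differed in the size of their rise. The change in log2(FPKM + 1) between 9 h and 18 h had a median of 2.15 in tpt-2, with a highest value of 3.95, and a median of 1.98 in Col-0, with a highest value of 3.88. Over all genes tested the medians were -0.0031 in tpt-2 and -0.014 in Col-0. A 3-fold rise was rare: it was met by 1.22% of tested nuclear genes in tpt-2 and 0.836% in Col-0, and by 0.567% in both. Another 114 genes met it in tpt-2 only and 47 in Col-0 only. The 3 libraries at 18 h lay above the 3 libraries at 9 h for 83 of the 86 members in tpt-2, against 18.9% of all tested nuclear genes, and for 85 members in Col-0, against 20.2%. The groups overlapped for RD20, AT3G57460 and VSP2 in tpt-2 and for VSP2 in Col-0. These shares follow from how the members were chosen.

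Together the members made up 0.836% to 1.30% of the summed FPKM in the tpt-2 libraries and 1.67% to 1.75% in the Col-0 libraries at 18 h. At 9 h they made up 0.181% to 0.234% in tpt-2 and 0.285% to 0.625% in Col-0, with the highest value in replicate 3 of Col-0. The rise in log2(FPKM + 1) was larger in tpt-2 for 50 members and larger in Col-0 for 36. This split depends on the added 1, which shrinks rises from low 9 h levels. AT3G25795, counted here as larger in Col-0, had a fold of mean FPKM of 15.1 in Col-0. In tpt-2 its fold was at least 36.1, at a limit of 3 fragments a library. By the smaller of the 2 rises in FPKM + 1, the members closest to the threshold were CSLA10 (3.005-fold), NIA1 (3.017-fold), TT5 (3.057-fold) and AT5G35970 (3.059-fold). The genes just outside it were AT3G14395 (2.998-fold), AT1G06540 (2.993-fold), AT4G14090 (2.981-fold) and CP1 (2.970-fold).

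**Figure D3:**
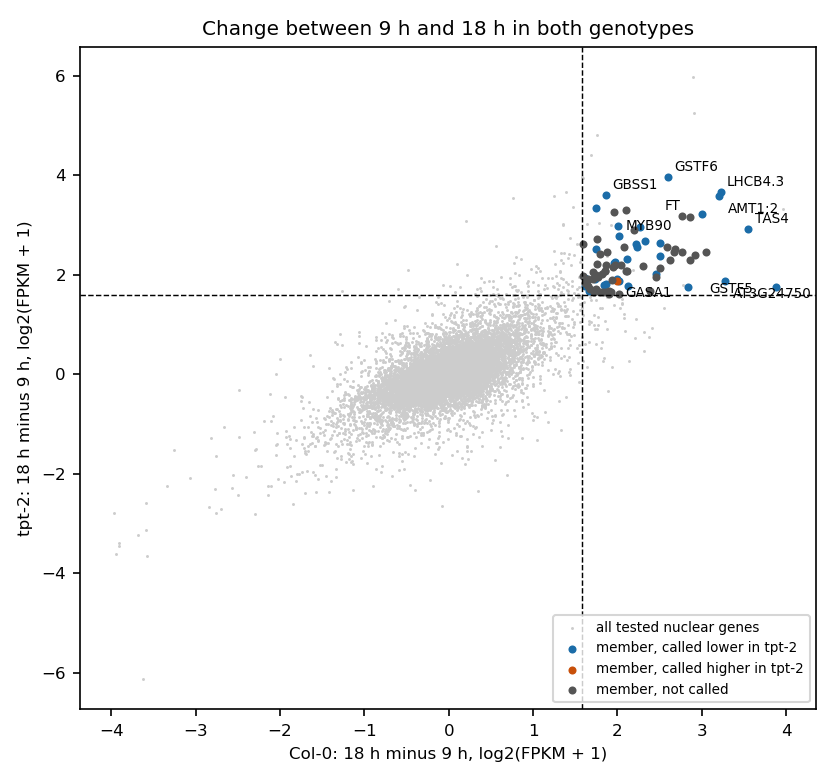
Change in log2(FPKM + 1) from 9 h to 18 h in tpt-2 (vertical axis) against the same change in Col-0 (horizontal axis) for all tested nuclear genes (grey) and for the 86 members, coloured by whether limma called them lower (blue), higher (orange) or neither (dark grey) in tpt-2 over both times. Dashed lines mark a 3-fold change; unmarked grey points beyond both lines are the 13 genes that were left out by name. GSTF6 and GBSS1 lie toward the tpt-2 side and GSTF5 and AT3G24750 toward the Col-0 side. For AT3G24750 the folds of mean FPKM, without the added 1, were 26.3 in tpt-2 and 30.4 in Col-0.

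The second question was whether the members differed between the genotypes, which was tested as the mean difference of tpt-2 from Col-0 over both times, a contrast that the choice of members did not use. In limma with Benjamini-Hochberg adjustment over 17585 genes, 32 of the 86 members (37.2%) were lower in tpt-2, against 6.24% of all genes tested. Only 1 member, GASA1 (1.16%), was higher in tpt-2, against 16.0% of all genes tested. The median genotype difference of the members was -0.27 on the log2(FPKM + 1) scale and that of all genes 0.08. A negative estimate was found for 68 members and a positive one for 18, while 33.9% of all genes tested had a negative estimate. GSTF6, MYB90, AT5G62210, BAM5, ELIP1 and GBSS1 had the lowest estimates, whereas CAT2, VTC2, most nitrogen and sulfur genes and the florigens did not pass the test. RNA of a whole leaf cannot tell fewer cells of a type from less RNA in each cell.

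The direction of the background depended on scaling, while that of the members did not. As deposited, the FPKM values gave 2807 calls above and 1098 calls below Col-0 over all genes. Median-ratio scaling turned this to 1417 above and 2000 below, yet 35 members were then lower and 1 was higher. Without replicate 3 of tpt-2 at 18 h and replicate 3 of Col-0 at 9 h, the same 32 members were lower, against 5.39% of all genes, and 3 were higher, and the median difference of the members was -0.17. Besides members on the lists of these libraries, the sign turned from negative to positive for SWEET2, VTC2, AT3G28270, AT5G19875, AT2G28200, AT4G23680 and AT3G09595. None of these was called with or without the libraries. JAL23 and AT3G57460, not called with all libraries, were on the lists that picked these 2 libraries, so their calls as higher are no valid tests. The same holds for 6 of the members called lower, namely GSTF6, AT3G25795, AT1G73325, BAM5, VSP1 and AT4G29690.

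At the single times, which share their group means with the choice of members and are given as a description, 19 of the 86 members (22.1%) were at least 2-fold lower in tpt-2 at 18 h, against 0.464% of tested nuclear genes, and 23 (26.7%) at 9 h, against 1.10%. GASA1 alone was at least 2-fold higher, against 0.624% of tested nuclear genes at 18 h and 1.69% at 9 h. All 3 tpt-2 libraries lay below all 3 Col-0 libraries for 35 members at 18 h, against 6.91% of tested nuclear genes, and for 32 members at 9 h, against 14.0%. The reverse held for 4 members at 18 h, against 21.7%, and for 1 member at 9 h, against 23.5%. Without the 2 libraries that stood apart, 17 members were at least 2-fold lower at each time, against 74 of 17470 tested nuclear genes at 18 h and 169 at 9 h. Values of 16 members picked these libraries, so part of this change was built in.

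**Figure D4:**
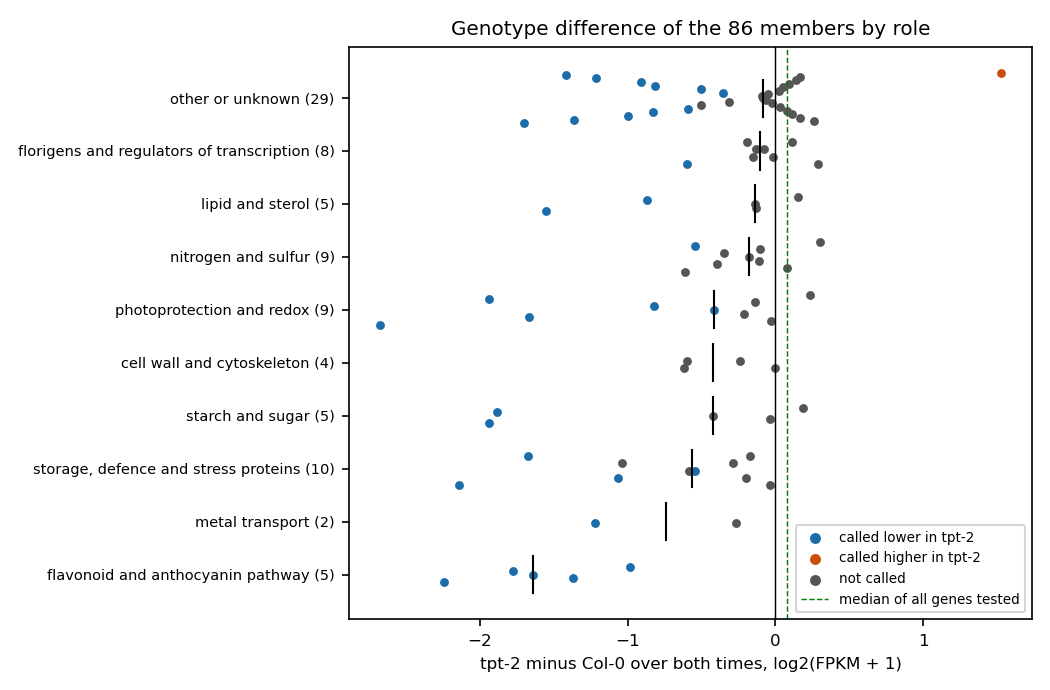
Difference of tpt-2 from Col-0 over both times (horizontal axis, log2(FPKM + 1)) of each of the 86 members, grouped by role (vertical axis, number of members in brackets), with the median of each role as a black bar and the median of all genes tested as a dashed line. All 5 flavonoid members are called lower (blue), none of the 4 cell wall members is called, and GASA1 at 1.53 is the only one called higher (orange).

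Photoprotection and redox genes had the highest median level of the roles, at 217 FPKM over all libraries. In tpt-2, 5 of the 9 (LHCB4.3, ELIP1, GSTF5, GSTF6 and NDA1) were lower, against 6.24% of all genes tested. GSTF6, a stress-inducible glutathione S-transferase of the phi class, had 430.2, 366 and 359 FPKM in tpt-2 and 1525, 1512 and 1574 FPKM in Col-0 at 18 h. At 9 h GSTF6 had 10.4, 37.3 and 34.3 FPKM in tpt-2 and 195, 182 and 452 FPKM in Col-0. All tpt-2 libraries lay far below all Col-0 libraries at both times, and the genotype difference was -2.67 ± 0.29 (SE; adjusted p = 0.000157), and -2.44 without the 2 libraries that stood apart. GSTF5, another gene of this class, lies 487 bases upstream of GSTF6 on the same strand. It had 2.59, 3.62 and 4.24 FPKM in tpt-2 and 31.1, 26.6 and 27.9 FPKM in Col-0 at 18 h, against 0.447, 0.159 and 0.345 FPKM in tpt-2 and 0.888, 0.459 and 1.88 FPKM in Col-0 at 9 h. Its RNA was scarce at 9 h in both genotypes and was higher in each Col-0 library than in each tpt-2 library at 18 h, with a difference over both times of -1.67 ± 0.16 (SE; adjusted p = 5.04e-05). The change over time was 3.95 in tpt-2 and 2.60 in Col-0 for GSTF6, but 1.76 in tpt-2 and 3.88 in Col-0 for GSTF5, so that the larger change lay in different genotypes for these neighbours.

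ELIP1, an early light-induced chlorophyll-binding protein of the thylakoid, had 306, 361 and 176 FPKM in tpt-2 and 907, 726 and 1348 FPKM in Col-0 at 18 h. At 9 h ELIP1 had 32.7, 52.7 and 86.6 FPKM in tpt-2 and 176, 365 and 171 FPKM in Col-0. Each tpt-2 library was below each Col-0 library at the same time, and the difference was -1.94 ± 0.28 (SE; adjusted p = 0.000833). LHCB4.3, an isoform of the minor photosystem II antenna protein CP29, had 341, 269.7 and 325 FPKM in tpt-2 and 562, 485 and 388 FPKM in Col-0 at 18 h. At 9 h LHCB4.3 had 17.0, 23.6 and 33.1 FPKM in tpt-2 and 45.6, 36.3 and 73.9 FPKM in Col-0. The libraries of the 2 genotypes did not overlap, its change of 3.66 in tpt-2 and 3.23 in Col-0 was among the steepest of all members, and it differed by -0.82 ± 0.18 (SE; adjusted p = 0.00931). NDA1, an internal alternative NAD(P)H dehydrogenase of mitochondria, differed by -0.41 (adjusted p = 0.0106 by limma).

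CAT2, the peroxisomal catalase that removes the hydrogen peroxide of photorespiration, had 664, 750.4 and 715 FPKM in tpt-2 and 675, 685 and 647 FPKM in Col-0 at 18 h. At 9 h CAT2 had 130.4, 177 and 91.0 FPKM in tpt-2 and 92.6, 80.5 and 124 FPKM in Col-0. The genotypes overlapped at both times and the test was not passed (0.24 ± 0.14 SE, adjusted p = 0.25). VTC2, which catalyses the first committed step of ascorbate synthesis, had 495, 532 and 392 FPKM in tpt-2 and 423, 449 and 407 FPKM in Col-0 at 18 h, against 114, 119.6 and 106 FPKM in tpt-2 and 115, 136 and 141 FPKM in Col-0 at 9 h. The genotypes overlapped at both times, with a difference of -0.03 ± 0.08 (SE; adjusted p = 0.812). The glutaredoxin family gene AT1G64500 and the chloroplast phosphatase gene SLP1 likewise did not pass, with differences of -0.14 and -0.21. 

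**Figure D5:**
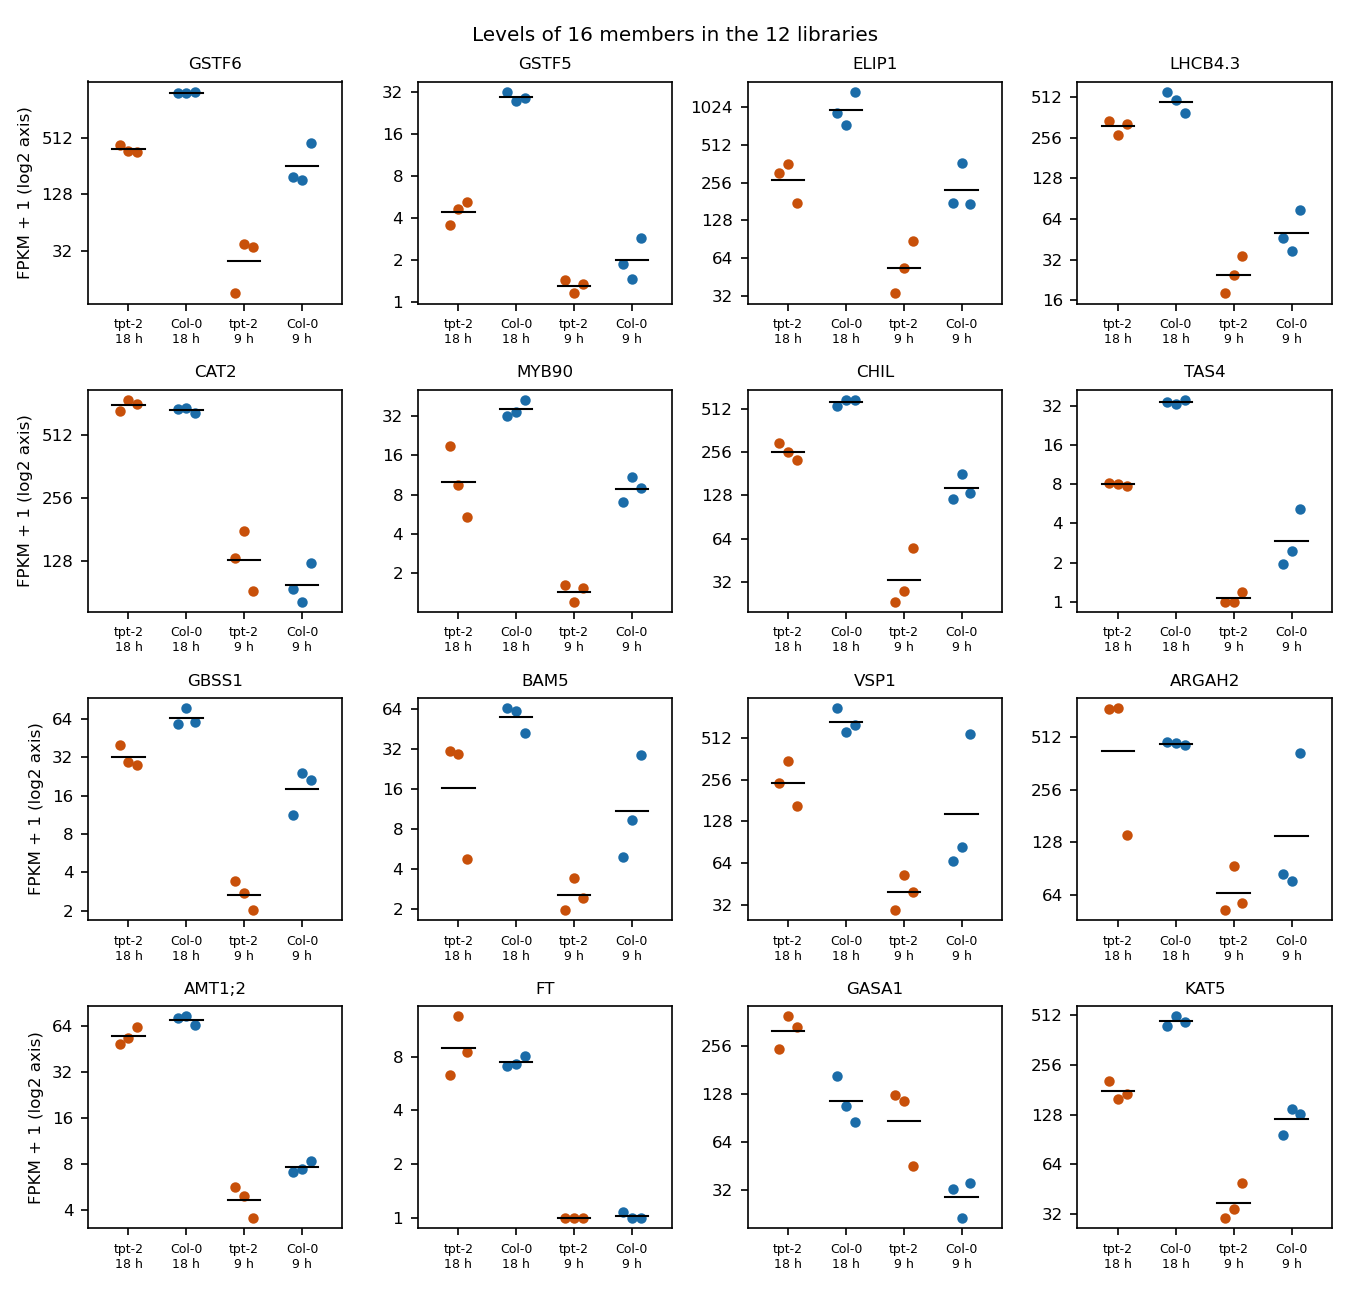
FPKM + 1 (vertical axis, log2 scale) of 16 members in each of the 12 libraries, as points in orange for tpt-2 and blue for Col-0, with the mean of the log2 values as a bar, for both genotypes at 18 h (left) and at 9 h (right). Points of tpt-2 lie below those of Col-0 for GSTF6, MYB90, TAS4, GBSS1 and KAT5, the genotypes overlap for CAT2 and FT, and ARGAH2 and VSP1 show the replicate 3 libraries apart from the others.

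All 5 members of the flavonoid and anthocyanin pathway were lower in tpt-2, against 6.24% of all genes tested. Lower transcripts of this pathway in tpt-2 were known from these samples when the members were chosen, so the 5 genes are no separate evidence of it. C4H, which makes p-coumaric acid from cinnamic acid, had 204, 203 and 178 FPKM in tpt-2 and 327, 401 and 373 FPKM in Col-0 at 18 h, against 50.7, 54.9 and 63.1 FPKM in tpt-2 and 92.4, 151 and 118 FPKM in Col-0 at 9 h. TT5, the chalcone isomerase, had 163, 130.4 and 125 FPKM in tpt-2 and 281, 332 and 352 FPKM in Col-0 at 18 h, against 28.6, 30.8 and 49.9 FPKM in tpt-2 and 90.3, 124 and 101 FPKM in Col-0 at 9 h. CHIL, a chalcone isomerase-like protein without catalytic activity that raises flavonoid output, had 296, 255 and 226 FPKM in tpt-2 and 539, 594 and 593 FPKM in Col-0 at 18 h, against 22.2, 26.4 and 53.8 FPKM in tpt-2 and 120.2, 180.3 and 132 FPKM in Col-0 at 9 h. The genotypes were fully apart in all of these at both times, with differences of -0.99 for C4H, -1.37 for TT5 and -1.64 for CHIL (adjusted p = 0.000148, 7.07e-05 and 0.000168 by limma).

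MYB90, also known as PAP2, is an activator of the anthocyanin genes and one of the targets of small RNAs made from TAS4. It had 17.9, 8.55 and 4.43 FPKM in tpt-2 and 30.8, 33.5 and 41.7 FPKM in Col-0 at 18 h. At 9 h MYB90 had 0.629, 0.21 and 0.531 FPKM in tpt-2 and 6.01, 10.0 and 8.07 FPKM in Col-0. Each tpt-2 value was below each Col-0 value of the same time, and the difference was -2.24 ± 0.24 (SE; adjusted p = 0.000149). The TAS4 precursor (AT3G25795) had 7.26, 7.01 and 6.80 FPKM in tpt-2 and 33.1, 32.0 and 34.7 FPKM in Col-0 at 18 h. At 9 h TAS4 had 0, 0 and 0.197 FPKM in tpt-2 and 0.948, 1.47 and 4.19 FPKM in Col-0. In tpt-2 at 9 h it was at the detection limit, with 0, 0 and 3 fragments, and at 18 h the tpt-2 libraries agreed closely at a lower level than Col-0, with a difference over both times of -1.78 ± 0.19 (SE; adjusted p = 0.000117), and of -1.56 without the 2 libraries that stood apart. The activator and the precursor of the small RNAs that target it were thus both lower in tpt-2 and both higher at 18 h than at 9 h.

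The stretch of the TAS4 transcript most like MYB90 is given because it links these members by sequence, with matching bases in capitals (RefSeq TAIR10.1). Of 21 bases, 20 matched MYB90, and the same TAS4 stretch matched PAP1, which is not a member, in 21 of 21. The stretches are written 5′ to 3′ in the sense of each transcript, so that a small RNA from the opposite strand of TAS4 would pair with MYB90.
TAS4 (chr3:9417736-9417756, minus strand): GCCTCGACCTCGATCCTTCaC
MYB90 (chr1:24765073-24765093, plus strand): GCCTCGACCTCGATCCTTCtC

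Whole lists of the pathway, which include members and genes left out of the 86 by name, show the setting. The flavonoid list held 2 members and 6 genes left out by name, and the phenylpropanoid list held 1 member and 2 such genes. The rise between the times also chose the members, so the counts of genes that rose are a description. Of 17 flavonoid and anthocyanin genes tested, 17 rose between 9 h and 18 h in tpt-2, against 12.1% of all genes, and 17 in Col-0, against 13.1%. Of 16 phenylpropanoid and lignin genes tested, 10 rose and 1 fell in tpt-2, and 12 rose in Col-0. Of 12 genes of the upstream shikimate pathway, 7 rose and 1 fell in each genotype. All 17 flavonoid genes, 8 of the phenylpropanoid genes and 3 of the shikimate genes were lower in tpt-2 over both times, against 6.24% of all genes. Under median-ratio scaling 8 of the shikimate genes were lower, but so were 2000 of all 17585 genes, against 1098 as deposited.

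Of the starch and sugar genes, 2 of 5 were lower in tpt-2, against 6.24% of all genes tested. GBSS1, the granule-bound starch synthase that makes amylose, had 39.3, 28.7 and 27.1 FPKM in tpt-2 and 57.8, 77.2 and 60.1 FPKM in Col-0 at 18 h. At 9 h GBSS1 had 2.41, 1.74 and 1.03 FPKM in tpt-2 and 10.3, 23.2 and 20.1 FPKM in Col-0. It was low in tpt-2 at 9 h, and its later change was larger in tpt-2 than in Col-0 (3.60 in tpt-2 and 1.87 in Col-0), so that the gap to Col-0 was smaller at 18 h (-1.02) than at 9 h (-2.75). The genotype difference over both times was -1.89 ± 0.19 (SE; adjusted p = 8.15e-05). BAM5, a beta-amylase outside the chloroplast, had 30.0, 28.2 and 3.75 FPKM in tpt-2 and 64.1, 60.8 and 41.3 FPKM in Col-0 at 18 h, against 0.977, 2.44 and 1.43 FPKM in tpt-2 and 3.92, 8.44 and 27.8 FPKM in Col-0 at 9 h. Over both times BAM5 differed by -1.94 ± 0.50 (SE; adjusted p = 0.0167). Replicate 3 was low in tpt-2 at 18 h and high in Col-0 at 9 h. Without these, which such values picked out, the difference of BAM5 was -1.15 (adjusted p = 0.00478 by limma, not a valid test). Without a filter on low values its call was lost (adjusted p = 0.0785 by limma).

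The other 3 did not pass the test. BMY3, also named BAM9, is a beta-amylase family member without known catalytic activity, and had 14.7, 16.01 and 16.5 FPKM in tpt-2 and 19.4, 15.9 and 18.1 FPKM in Col-0 at 18 h, against 4.71, 5.28 and 3.02 FPKM in tpt-2 and 3.50, 1.67 and 2.83 FPKM in Col-0 at 9 h. Its change was larger in Col-0 (1.67 in tpt-2 and 2.39 in Col-0) and its genotype difference was 0.19 ± 0.14 (SE; adjusted p = 0.339). SWEET2, a sugar transporter of the vacuole membrane, differed by -0.03, and the cell wall invertase ATBFRUCT1 by -0.42. Without the 2 libraries the difference of ATBFRUCT1 was -0.07 (adjusted p = 0.717 by limma).

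In nitrogen and sulfur metabolism 1 of 9 members (11.1%), AMT1;2, was lower in tpt-2, against 6.24% of all genes tested. AMT1;2, an ammonium transporter of the plasma membrane, had 48.2, 52.2 and 62.1 FPKM in tpt-2 and 71.6, 73.3 and 63.9 FPKM in Col-0 at 18 h. At 9 h AMT1;2 had 4.66, 3.91 and 2.53 FPKM in tpt-2 and 6.14, 6.39 and 7.40 FPKM in Col-0. Its change of 3.57 in tpt-2 and 3.21 in Col-0 was the second largest of all members when averaged over the genotypes, and the genotype difference was -0.54 ± 0.11 (SE; adjusted p = 0.00534). NIA1, a nitrate reductase, had 33.1, 47.7 and 27.99 FPKM in tpt-2 and 30.5, 21.3 and 23.3 FPKM in Col-0 at 18 h. At 9 h NIA1 had 7.99, 6.90 and 10.0 FPKM in tpt-2 and 7.79, 7.47 and 7.37 FPKM in Col-0. APR2, the main APS reductase of sulfate assimilation, had 74.5, 67.4 and 86.7 FPKM in tpt-2 and 70.8, 72.2 and 74.7 FPKM in Col-0 at 18 h, against 23.9, 21.3 and 14.7 FPKM in tpt-2 and 17.5, 16.6 and 21.0 FPKM in Col-0 at 9 h, with overlapping genotypes at both times. An opposite-strand gene covers 46.4% of the exon bases of APR2, and whether the counting used strand is not given in the sources used here.

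Neither NIA1 (0.30 ± 0.13 SE, adjusted p = 0.117) nor APR2 (0.08 ± 0.11 SE, adjusted p = 0.633) passed the test. AO, the L-aspartate oxidase that begins NAD synthesis, had 11.7, 12.7 and 12.9 FPKM in tpt-2 and 9.67, 11.5 and 12.9 FPKM in Col-0 at 18 h, against 1.22, 1.86 and 0.909 FPKM in tpt-2 and 1.63, 2.68 and 1.53 FPKM in Col-0 at 9 h. Over both times AO differed by -0.11. ARGAH2, an arginase, had 744, 752 and 141 FPKM in tpt-2 and 478, 473 and 459 FPKM in Col-0 at 18 h. At 9 h ARGAH2 had 51.5, 92.6 and 56.2 FPKM in tpt-2 and 83.3, 76.0 and 417 FPKM in Col-0. The tpt-2 replicates 1 and 2 exceeded Col-0 at 18 h while replicate 3 lay far below, and replicate 3 of Col-0 at 9 h was near the 18 h level. Its difference was -0.61 ± 0.48 (SE; adjusted p = 0.384) with all libraries and 0.19 without these 2 (adjusted p = 0.356 by limma), so the sign turned. CLC-B, an anion transporter of the vacuole membrane, differed by -0.39, and the plastid nucleobase transporter gene NCS1 by -0.10. The 2 members annotated as major facilitator superfamily proteins, AT1G68570 and AT3G21670, differed by -0.34 and -0.18. Opposite-strand exons also cover over 20% of the exon bases of CLC-B and AT1G68570.

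As a whole list, 8 of 8 genes of sulfate assimilation rose between 9 h and 18 h in tpt-2, against 12.1% of all genes, and 7 in Col-0, against 13.1%. The list holds 1 member, APR2, which was chosen by its rise. Over both times 2 of them were higher in tpt-2, against 16.0% of all genes, and 2 were lower, against 6.24%.

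Among lipid and sterol genes, 2 of 5 were lower in tpt-2, against 6.24% of all genes tested. KAT5, a 3-ketoacyl-CoA thiolase of fatty acid beta-oxidation, had 204, 158 and 169 FPKM in tpt-2 and 442, 503 and 466 FPKM in Col-0 at 18 h. At 9 h KAT5 had 29.2, 33.3 and 48.4 FPKM in tpt-2 and 95.2, 138 and 128 FPKM in Col-0. The genotypes were fully apart, with a difference of -1.55 ± 0.13 (SE; adjusted p = 1.99e-05). AAE18, an acyl-activating enzyme of the peroxisome, had 18.0, 16.6 and 19.1 FPKM in tpt-2 and 32.3, 33.5 and 36.0 FPKM in Col-0 at 18 h, against 3.54, 4.27 and 5.38 FPKM in tpt-2 and 6.78, 11.6 and 8.04 FPKM in Col-0 at 9 h. Over both times AAE18 differed by -0.87 ± 0.12 (SE; adjusted p = 0.000541). SQP1, annotated as an FAD/NAD(P)-binding oxidoreductase family protein, did not pass (-0.13), nor did the Serinc-domain gene AT3G24460 (0.15) or the lipid transport family gene AT4G23680 (-0.14). AT3G24463 lies inside an intron of AT3G24460 on the same strand, without overlap of exons, and fragments of unspliced AT3G24460 RNA cannot be told from its own.

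NRAMP4, which releases iron and other metals from the vacuole, had 42.0, 38.3 and 33.4 FPKM in tpt-2 and 85.5, 92.5 and 87.8 FPKM in Col-0 at 18 h. At 9 h NRAMP4 had 10.4, 11.8 and 11.1 FPKM in tpt-2 and 25.4, 23.6 and 34.2 FPKM in Col-0. The genotypes were fully apart at both times, with a difference of -1.22 ± 0.09 (SE; adjusted p = 7.28e-06). YSL2, a transporter of metal-nicotianamine complexes, had 8.18, 13.6 and 8.87 FPKM in tpt-2 and 10.8, 12.8 and 10.3 FPKM in Col-0 at 18 h, and did not pass the test (-0.26 ± 0.13 SE, adjusted p = 0.171).

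Of the 8 florigens and regulators of transcription, 1 (12.5%) was lower in tpt-2, against 6.24% of all genes tested, and 7 did not pass the test. FT, the florigen made in leaf phloem, had 5.34, 12.4 and 7.48 FPKM in tpt-2 and 6.09, 6.29 and 7.06 FPKM in Col-0 at 18 h. At 9 h FT had 0, 0 and 0 FPKM in tpt-2 and 0.0855, 0 and 0 FPKM in Col-0. The 9 h values correspond to 0 fragments in every tpt-2 library and to 1, 0 and 0 fragments in Col-0. With 3 fragments a library taken as the limit of detection, FT in tpt-2 was at least 34.3-fold higher at 18 h than at 9 h, and this limit covers counting error only. TSF, the closest relative of FT with the same function, had 4.31, 4.69 and 3.54 FPKM in tpt-2 and 1.96, 2.997 and 3.48 FPKM in Col-0 at 18 h, against 0.0969, 0.0861 and 0.187 FPKM in tpt-2 and 0, 0 and 0.0888 FPKM in Col-0 at 9 h. Its 18 h values rest on 43, 49 and 37 fragments in tpt-2 and 41, 33 and 35 fragments in Col-0. Both florigens were thus nearly undetected at 9 h and present in all 6 libraries at 18 h. Neither passed the genotype test (0.11 ± 0.15 SE, adjusted p = 0.631 for FT and 0.29 ± 0.12 SE, adjusted p = 0.116 for TSF), and at 18 h the FT groups overlapped while all 3 tpt-2 libraries lay above all 3 Col-0 libraries for TSF.

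The B-box zinc finger genes BBX31, BBX32 and STH (also BBX25) encode regulators of light signalling. BBX31 had 10.1, 11.2 and 5.30 FPKM in tpt-2 and 11.96, 14.6 and 11.8 FPKM in Col-0 at 18 h, against 0.286, 0.89 and 0.483 FPKM in tpt-2 and 1.28, 1.62 and 1.38 FPKM in Col-0 at 9 h. Over both times it was lower in tpt-2, by limma, with a difference of -0.60 ± 0.16 (SE; adjusted p = 0.0202). This call was lost without replicate 2 of Col-0 at 18 h (-0.55) and without replicate 1 of tpt-2 at 9 h (-0.53), with adjusted p no higher than 0.0534 over all fits that left out 1 library (limma). It was also lost without a filter on low values (adjusted p = 0.0737 by limma). BBX32 had 7.68, 8.13 and 6.06 FPKM in tpt-2 and 8.65, 10.7 and 11.1 FPKM in Col-0 at 18 h, against 0.369, 0.764 and 0.948 FPKM in tpt-2 and 0.305, 0.505 and 0.844 FPKM in Col-0 at 9 h. STH had 34.7, 30.0 and 26.8 FPKM in tpt-2 and 32.3, 31.9 and 33.8 FPKM in Col-0 at 18 h, against 6.77, 8.67 and 4.56 FPKM in tpt-2 and 6.23, 7.47 and 6.61 FPKM in Col-0 at 9 h. Neither was called, with differences of -0.15 and -0.08. TRY, a small MYB repressor of trichome formation, differed by -0.19. The zinc finger gene AT2G28200 and the MYB-like gene AT1G70000 differed by -0.01 and -0.13.

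The clock genes give the setting for these regulators, and as with the florigens their time of day differs between the groups. Of 10 evening-phased clock genes, 9 fell in tpt-2 between 9 h and 18 h, against 11.3% of all genes, and 8 in Col-0, against 15.5%, where 2 rose. Over both times 8 of these 10 were higher in tpt-2, against 16.0% of all genes. Under median-ratio scaling 5 were higher, where 1417 of all 17585 genes were, against 2807 as deposited. Of 11 morning-phased genes, 6 rose and 3 fell in each genotype. In other lists, 3 of 12 cold response genes fell in tpt-2, against 11.3% of all genes, and 6 in Col-0, against 15.5%. None of them rose by limma, where 3 in tpt-2 and 9 in Col-0 had an unadjusted p under 0.05 in either direction. Of 11 abscisic acid response genes, 1 rose in tpt-2, against 12.1% of all genes, and 2 in Col-0, against 13.1%, and of 5 heat shock genes 0 were called by limma, with 0 at an unadjusted p under 0.05 in either genotype.

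Of the 10 storage, defence and stress protein genes, 4 were lower in tpt-2, against 6.24% of all genes tested: VSP1, AT5G62210, AT1G73325 and AT2G27420. VSP1 and VSP2, vegetative storage proteins that are classical jasmonate-induced genes and lie 5365 bases apart on chromosome 5, moved with the 2 libraries described above. VSP1 had 242, 347 and 164 FPKM in tpt-2 and 839, 564 and 636 FPKM in Col-0 at 18 h, against 28.4, 51.7 and 38.4 FPKM in tpt-2 and 65.2, 82.8 and 542 FPKM in Col-0 at 9 h. VSP2 had 511, 709 and 191 FPKM in tpt-2 and 854, 822 and 671 FPKM in Col-0 at 18 h, against 79.8, 202 and 67.7 FPKM in tpt-2 and 137, 118 and 750.2 FPKM in Col-0 at 9 h. Replicate 3 of Col-0 at 9 h was near the 18 h level for both, and replicate 3 of tpt-2 at 18 h was the lowest of its group for both. VSP1 was lower in tpt-2, with a difference of -1.68 ± 0.43 (SE; adjusted p = 0.0178), and of -1.06 without these libraries (adjusted p = 0.00299 by limma), whereas VSP2 did not pass with all libraries (-1.04 ± 0.47 SE, adjusted p = 0.135) or without these (-0.34, adjusted p = 0.378). Without a filter on low values the call of VSP1 was lost (adjusted p = 0.0827 by limma). Values such as those of VSP1 and VSP2 picked the 2 libraries, so their adjusted p without these are no valid tests.

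AT5G62210, annotated as an embryo-specific protein of the ATS3 family, had 53.6, 23.8 and 25.5 FPKM in tpt-2 and 104, 139.7 and 165 FPKM in Col-0 at 18 h, against 1.73, 2.38 and 3.82 FPKM in tpt-2 and 9.07, 32.8 and 13.0 FPKM in Col-0 at 9 h. Over both times AT5G62210 differed by -2.14 ± 0.29 (SE; adjusted p = 0.00066). The Kunitz-type protease inhibitor gene AT1G73325 had 119, 122 and 48.5 FPKM in tpt-2 and 124, 99.4 and 98.8 FPKM in Col-0 at 18 h. At 9 h AT1G73325 had 8.58, 8.68 and 6.43 FPKM in tpt-2 and 23.2, 16.1 and 78.9 FPKM in Col-0. Its difference of -1.06 ± 0.34 (SE; adjusted p = 0.0425) lost the call in 7 of 12 fits that left out 1 library and without a filter on low values (adjusted p = 0.151), and was -0.52 without the 2 libraries (adjusted p = 0.0131 by limma). AT1G73325 was on the lists that picked the 2 libraries, so its adjusted p without them is no valid test. Its neighbour DR4, of the same inhibitor family, differed by -0.59 and was not called. The cysteine proteinase gene AT2G27420 was called at -0.54 (adjusted p = 0.0377 by limma), a call that was lost in 9 of the 12 fits without 1 library and without a filter on low values (adjusted p = 0.127).

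JAL23, a jacalin-related lectin, had 48.9, 50.04 and 14.4 FPKM in tpt-2 and 34.3, 26.3 and 27.1 FPKM in Col-0 at 18 h. At 9 h JAL23 had 3.10, 4.02 and 3.68 FPKM in tpt-2 and 3.33, 2.07 and 20.3 FPKM in Col-0. Its difference was -0.17 with all libraries and 0.54 without the 2 libraries, so the sign turned. JAL23 was called higher there (adjusted p = 0.0100 by limma), but values such as its own picked the 2 libraries, so this is no valid test. RD20, a caleosin of drought and abscisic acid responses, had 92.1, 178 and 29.1 FPKM in tpt-2 and 79.1, 92.5 and 88.4 FPKM in Col-0 at 18 h, against 10.2, 36.3 and 6.15 FPKM in tpt-2 and 8.16, 9.90 and 24.8 FPKM in Col-0 at 9 h. Over both times RD20 differed by -0.03, and by 0.54 without the 2 libraries (adjusted p = 0.328 by limma), so the sign turned. AT3G28220, a TRAF-like family gene, had 948, 1038 and 270.2 FPKM in tpt-2 and 439, 584 and 827 FPKM in Col-0 at 18 h, against 116, 102 and 146 FPKM in tpt-2 and 112, 137 and 325 FPKM in Col-0 at 9 h. Over both times AT3G28220 differed by -0.20, and by 0.34 without the 2 libraries (adjusted p = 0.152 by limma), where the sign turned as well. The defensin-like gene AT1G13609 differed by -0.29, and by -0.06 without the 2 libraries, and was called in neither case. For JAL23, RD20 and AT3G28220 the highest tpt-2 values at 18 h were above all Col-0 values and the lowest were below them.

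None of the 4 cell wall and cytoskeleton genes passed the genotype test, with adjusted p of at least 0.126 by limma, and 2 had an unadjusted p under 0.05. CSLA10, of the family of mannan synthases, had 64.3, 70.6 and 24.6 FPKM in tpt-2 and 40.8, 52.3 and 62.7 FPKM in Col-0 at 18 h, against 7.88, 7.06 and 6.17 FPKM in tpt-2 and 10.5, 15.1 and 27.1 FPKM in Col-0 at 9 h. CSLB04, a cellulose synthase-like gene, had 20.8, 21.8 and 20.9 FPKM in tpt-2 and 21.8, 24.7 and 22.4 FPKM in Col-0 at 18 h, against 6.38, 8.02 and 4.35 FPKM in tpt-2 and 6.52, 5.21 and 5.05 FPKM in Col-0 at 9 h, with a genotype difference of -0.00013. IRX15-L, needed for xylan in secondary walls, and SP1L4, of the SPIRAL1 family of microtubule proteins, differed by -0.62 and -0.24. Without the 2 libraries the differences were -0.17 for IRX15-L (-0.62 with them) and -0.19 for CSLA10 (-0.60 with them), and neither was called.

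Of the 29 members with another or no known role, 11 were lower in tpt-2, against 6.24% of all genes tested, and 1 was higher, against 16.0%. GASA1, which encodes a small cysteine-rich protein of the gibberellin-regulated GASA family, had 243, 392 and 337 FPKM in tpt-2 and 164, 107 and 84.5 FPKM in Col-0 at 18 h. At 9 h GASA1 had 125, 114 and 44.0 FPKM in tpt-2 and 31.3, 20.1 and 34.4 FPKM in Col-0. It was the only member above Col-0 by the test, with a difference of 1.53 ± 0.26 (SE; adjusted p = 0.00234), and its groups did not overlap between genotypes at either time. BGLU1, a beta-glucosidase, had 69.3, 66.8 and 58.6 FPKM in tpt-2 and 179, 176 and 150.1 FPKM in Col-0 at 18 h, against 7.63, 7.69 and 7.23 FPKM in tpt-2 and 28.4, 29.2 and 46.9 FPKM in Col-0 at 9 h. Its difference of -1.70 ± 0.11 (SE; adjusted p = 3.12e-06) was the one with the smallest adjusted p among the members. The NAD(P)-binding Rossmann-fold genes AT2G23910 and AT4G30470, which resemble each other in sequence, were both called, with differences of -1.36 and -0.82. Also called lower were mSFC1, the mitochondrial succinate/fumarate carrier, at -0.59, the nudix hydrolase gene NUDT24 at -0.82, and the cytochrome P450 gene AT3G44970 at -0.91. AT4G29690 was called lower at -1.21, and at -0.86 without the 2 libraries that stood apart (adjusted p = 0.0031 by limma), while AT3G57460 differed by 0.03 and was called higher without them, at 0.67 (adjusted p = 0.045 by limma). Both genes were on the lists that picked these libraries, so their adjusted p without them are no valid tests.

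Some members without known function had unequal changes in log2(FPKM + 1) in the 2 genotypes. AT3G24750 had 2.64, 4.81 and 2.29 FPKM in tpt-2 and 9.10, 12.2 and 16.8 FPKM in Col-0 at 18 h, against 0.0773, 0.0687 and 0.224 FPKM in tpt-2 and 0.307, 0.874 and 0.0709 FPKM in Col-0 at 9 h, with changes of 1.88 in tpt-2 and 3.27 in Col-0. Without the added 1, its folds of mean FPKM were close, at 26.3 in tpt-2 and 30.4 in Col-0. The 9 h values of AT3G24750 rest on 1, 1 and 3 fragments in tpt-2 and 4, 11 and 1 in Col-0. AT2G30766, an uncharacterized protein gene that overlaps an opposite-strand gene, had 19.9, 14.8 and 10.9 FPKM in tpt-2 and 16.5, 11.6 and 12.3 FPKM in Col-0 at 18 h, against 0.984, 0.644 and 0.4 FPKM in tpt-2 and 2.06, 1.76 and 4.84 FPKM in Col-0 at 9 h, with changes of 3.25 in tpt-2 and 1.97 in Col-0. AT3G24750 was lower in tpt-2, with a difference of -0.998 ± 0.19 (SE; adjusted p = 0.00409), and AT2G30766 was not called (-0.50). The differences between the 2 time changes were not tested, since they come from the contrasts that chose the members.

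Other uncharacterized genes had large changes in both genotypes. AT1G65490 had 108, 121 and 101 FPKM in tpt-2 and 95.1, 76.3 and 69.0 FPKM in Col-0 at 18 h, against 12.9, 9.84 and 11.4 FPKM in tpt-2 and 7.70, 11.4 and 14.2 FPKM in Col-0 at 9 h. AT2G15020 changed by 2.45 in tpt-2 and 3.05 in Col-0, and AT1G68440 by 2.39 in tpt-2 and 2.92 in Col-0. AT1G65490 and AT1G65486 lie downstream of FT on the same strand, within 20000 bases of the next member in each case. In all, 13 of the 86 members lay within this distance of another member, in 7 pairs. AT5G54062, annotated as an egg cell-secreted-like protein, starts 396 bases from the start of the anthocyanin gene UF3GT on the opposite strand. It had 2.31, 1.93 and 2.85 FPKM in tpt-2 and 13.2, 12.3 and 10.9 FPKM in Col-0 at 18 h, against 0, 0 and 0 FPKM in tpt-2 and 0.463, 0.766 and 1.37 FPKM in Col-0 at 9 h. With no fragment in any tpt-2 library at 9 h, its level in tpt-2 at 18 h was at least 8.90-fold higher. It was lower in tpt-2, with a difference of -1.42 ± 0.13 (SE; adjusted p = 3.75e-05).

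The tRNA-Ser locus AT3G09595 is the least certain member. It lies 461 bases from the clock gene RVE8, has 1 other locus with identical sequence, and held 10, 4 and 3 fragments in tpt-2 and 10, 5 and 6 in Col-0 at 18 h, against 0 in all 6 libraries at 9 h. At a limit of 3 fragments a library it was at least 2.01-fold higher at 18 h in tpt-2 and at least 1.79-fold higher in Col-0, and these lower bounds do not reach the 3-fold of the choice.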

How the data were processed

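The authors deposited 1 FPKM value per gene and library. Per the submitters' processing notes the tools named include CASAVA, HISAT2 2.0.5, featureCounts 1.5.0-p3 and DESeq2 1.20.0 with the build TAIR10; their settings are not given in the sources used here. Per the labels' protocols, poly-T beads and dUTP strand marking were used. Symbols, coordinates and sequences are those of the RefSeq annotation of TAIR10.1, which held 32548 of the 32833 identifiers; the table itself gives no coordinates. Tests used log2(FPKM + 1), which understates changes of low genes, for the 17585 genes that averaged 1 FPKM or more, fitted by group in limma 3.58.1 (eBayes with trend, R 4.3.3), two-sided, called at an adjusted p under 0.05. The 3-fold choice used the group means of the same values. Fragments were recovered from FPKM steps and mean transcript length, and 98.1% to 98.4% of low values were whole within 0.05. The genes described singly are those largest in rise, level or genotype difference, nearest the threshold, on a gene list, or largest in rise within a role; a few others (among them AT3G09595, NCS1, BGLU1, mSFC1 and NUDT24) were named after their values were seen. Members, roles and lists were chosen with earlier results of these data known. The code was tested on simulated data. Python 3.11.15 and BLAST+ 2.17.0 did the rest.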

Additional observations from a re-analysis of the deposited data

How the results depend on the processing

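A pseudocount of 0.1 brought 146 genes into the set, with all 86 among them, since a smaller pseudocount widens the changes of low genes. Other settings gave 69 genes at a mean of at least 5 FPKM, 86 without a filter, 89 with median-ratio scaling and 84 with quantile normalization. Leaving out 1 library gave 78 to 100 genes, and 58 members met the thresholds in all 12 of these fits while 28 missed them at least once. Without both libraries that stood apart, a setting chosen after seeing the data, 110 genes met them, 83 of them members.

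The count of members called between genotypes was 33 with all libraries, 27 to 38 under the other settings and 29 to 34 without 1 library. It was 35 without both libraries, a description only, since values of 16 members had picked these libraries. No estimate of a singly tested gene that was called with all libraries changed sign. Of the 33 calls 29 were made in all 12 fits without 1 library; AT1G24580, AT1G73325, AT2G27420 and BBX31 lost theirs in at least 1. Without a filter, 6 members (BAM5, VSP1, BBX31, AT1G73325, AT2G27420 and AT1G24580) were no longer called. Both the estimate of spread in limma and the adjustment then drew on more genes. Over all genes, 2673 to 4151 were called between genotypes without 1 library, 2966 to 4326 for 18 h against 9 h in tpt-2 and 3706 to 5138 in Col-0. With quantile normalization 1318 genes were higher and 1477 lower in tpt-2, and the median of all genes was -0.02, against 0.08 as deposited.

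Replicates with the same number did not deviate together in most groups: over 18 pairs the correlations lay between -0.345 and 0.135, and 7 had their own number highest. Between Col-0 at 9 h and Col-0 at 18 h the correlations were 0.135, 0.0911 and 0.105, each with its own number highest. The lowest was that of replicate 3 of Col-0 at 9 h with replicate 3 of tpt-2 at 18 h, the libraries that stood apart. A fit with the replicate block called 3215 genes and 31 members between genotypes, without AT1G73325 and AT2G27420, 3666 genes for 18 h against 9 h in tpt-2 and 4526 in Col-0. Levels under 3 fragments, as for FT and TSF at 9 h, limit what can be said of the size of their rise.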

Other observations

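The kinase gene SNRK2-8, named after its values were seen, had 27.3, 20.9 and 26.5 FPKM in tpt-2 and 28.4, 26.9 and 24.0 FPKM in Col-0 at 18 h, against 5.49, 5.41 and 3.81 FPKM in tpt-2 and 4.71, 2.87 and 4.05 FPKM in Col-0 at 9 h, and did not pass the genotype test (0.10). The members were spread over the 5 chromosomes, with 26 on chromosome 1, 14 on chromosome 2, 18 on chromosome 3, 8 on chromosome 4 and 20 on chromosome 5; chromosome 4 held 9.30% of them, against 15.3% of tested nuclear genes.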
